A study of Homo sapiens with 8 samples.

Results

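Trimethylation of histone H3 at lysine 27 (H3K27me3), which the methyltransferase EZH2 deposits at repressed genes as part of Polycomb repressive complex 2, was examined by ChIP-seq over 8 PAX genes in 2 human lymphoma B-cell lines. The members were PAX1, PAX2, PAX3, PAX4, PAX6, PAX7, PAX8 and PAX9. Each was taken as its hg19 span, given to the nearest 1 kb, extended by 10 kb on either side, and every H3K27me3 island overlapping that window by at least 1 bp was kept. This gave 32 of 47432 islands in LY19Y646F and 37 of 58144 in LY19WT. LY19Y646F constitutively expressed the EZH2 catalytic mutant Y646F from a CMV promoter, and LY19WT was labelled as wild type for EZH2. Both lines were untreated, and neither label states whether a line was a single clone or what copies of endogenous EZH2 the mutant line kept. Each line had 3 ChIP libraries and 1 input library. Islands, the stretches that the caller SICER found enriched over input, had been called on the pooled ChIP reads, so each value below is 1 value per line with no replicate error and no test between the lines.

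PAX genes encode transcription factors that bind DNA through a paired domain and direct the formation of organs in the embryo. Among the 8 genes, close paralogues are PAX1 and PAX9, PAX2 and PAX8, PAX3 and PAX7, and PAX4 and PAX6. Genes of this kind are known targets of Polycomb repression in cells of other lineages, where H3K27me3 can spread over the whole gene. Transcripts were not measured here, so the mark was described without reference to expression.

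Islands held 17410034 ChIP reads and 3527109 input reads in LY19Y646F, and 37556030 and 4949411 in LY19WT. These totals also follow the length of the lists, 383.6 Mb in LY19Y646F and 554.6 Mb in LY19WT. Median input density over autosomal islands was 8.42 and 8.41 reads per kb, and the ratio of the ChIP to the input library, recovered from the deposited folds, was 2.62 and 3.07. An island is called against a threshold on reads, so a stretch without islands may still carry the mark below that threshold. Local input, the median input density of islands in the 10 Mb bin of a gene over its median for all autosomes, lay between 0.930 and 1.14 in LY19Y646F for the 7 genes other than PAX9, and between 0.918 and 1.01 in LY19WT for all 8.

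Broad H3K27me3 lay over several PAX genes in both lines. In LY19Y646F 6 of the 8 windows held an island, and in LY19WT all 8 did. Islands covered at least 50% of the window at 3 genes in LY19Y646F (PAX2, PAX4 and PAX7) and at 5 in LY19WT (PAX1, PAX2, PAX3, PAX4 and PAX7). With the LY19WT list shortened by p-value until both lists covered the same length, the LY19WT count was 3. Without flanks the count was 4 in each line. PAX4, the shortest gene, was covered by at least 50% in neither line with flanks of 50 kb (35.2% in LY19Y646F and 23.8% in LY19WT), and without flanks the shares were 68% in LY19Y646F and 36% in LY19WT. Of all 50 kb windows of the autosomes, 36.5% held an island in LY19Y646F and 43% in LY19WT, and 11.4% and 18.9% were covered by at least 50%. The PAX windows measured 25 to 126 kb, and in windows of 100 kb the shares with an island were 45% in LY19Y646F and 50.1% in LY19WT. Median coverage of the PAX windows was 41.2% in LY19Y646F and 59.1% in LY19WT, beside a median of 0% over the 50 kb windows in each line.

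The lines differed in which PAX genes were covered. Coverage was lower in LY19Y646F at 5 genes (PAX1, PAX2, PAX3, PAX6 and PAX9) and higher at 3 (PAX4, PAX7 and PAX8). Across all 50 kb autosomal windows 32.6% were covered less and 22.2% more in LY19Y646F, and 45% held no island in either line. Every PAX window held an island in LY19WT, whereas these shares include the windows without any. The 5 of 8 genes are therefore not to be read as an excess over 32.6%. The differences in the PAX windows ran from -65.2 percentage points at PAX3 to 15.2 at PAX4, both as LY19Y646F minus LY19WT. At PAX2, PAX6, PAX7 and PAX8 the lines were within 7.4 points of each other as the lists stand, which did not hold at PAX7 and PAX8 once the LY19WT list was shortened to equal length (77.5% in LY19Y646F and 54.6% in LY19WT at PAX7, 37.6% and 20.5% at PAX8).

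**Figure D1:**
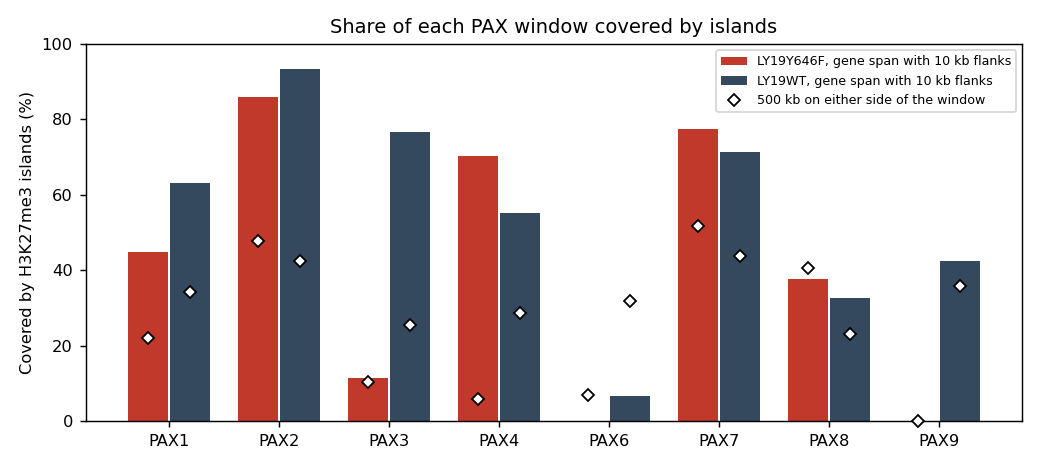
Share of each PAX window (gene span with 10 kb flanks) covered by H3K27me3 islands, in percent, with LY19Y646F left of LY19WT at each gene, and open diamonds for the 500 kb on either side of the window in the same line. PAX2 stands high in both lines, PAX3 has 11.4% in LY19Y646F and 76.6% in LY19WT, and PAX6 and PAX9 have no LY19Y646F bar.

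PAX2, a regulator of kidney and optic nerve development, carried the most complete domain of the 8 genes in both lines. In the window on chromosome 10 (102495001 to 102600000), 8 islands covered 85.9% in LY19Y646F and 5 islands covered 93.3% in LY19WT. In LY19Y646F the domain was cut into pieces of up to 30.4 kb, the widest from 102534601 to 102565000 with 1567 ChIP and 229 input reads. In LY19WT the gene was spanned by only 2 islands, from 102506001 to 102541800 with 3286 ChIP and 292 input reads and from 102542801 to 102595800 with 4780 ChIP and 465 input reads. The covered ground was largely the same, since the 87.4 kb shared by the lines made up 96.9% of the LY19Y646F and 89.2% of the LY19WT coverage in the window. The mark was also dense. The widest LY19Y646F island had 51.5 ChIP reads per kb, more than 95.4% of the islands in its list, and the 2 LY19WT islands over the gene had 91.8 and 90.2, more than 97.9% and 97.6% of theirs. Coverage in the window exceeded that of the 500 kb on either side, which was 47.7% in LY19Y646F and 42.3% in LY19WT.

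PAX8, the paralogue of PAX2 and a regulator of thyroid and kidney development, was covered in pieces. Over the window on chromosome 2 (113964001 to 114046000), coverage was 37.6% in LY19Y646F and 32.7% in LY19WT, with 6 islands in each. Within the window, the pieces lay largely in different places. The lines shared 10.4 kb, which was 33.8% of the LY19Y646F and 38.8% of the LY19WT coverage. In LY19Y646F an island from 114041001 to 114054600, the widest at 13.6 kb, lay upstream of the start of the gene. The 10 kb upstream flank was covered to 90%, against 16% in LY19WT. LY19WT also had an island upstream, from 114044401 to 114054800 with 703 ChIP and 90 input reads, most of which lay past the window. In LY19WT an island inside the gene, from 114017601 to 114025400 with 624 ChIP and 62 input reads, had no counterpart in LY19Y646F, which had no island between 113990200 and 114027001. Within the gene span alone the order of the lines turned, at 29.7% in LY19Y646F and 40.6% in LY19WT.

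PAX3, which acts in neural crest and in the progenitors of skeletal muscle, showed the widest gap between the lines. Islands covered 11.4% of the window (chromosome 2, 223055001 to 223174000) in LY19Y646F and 76.6% in LY19WT. LY19Y646F had 3 islands of 4.0 to 5.4 kb inside the gene, with 584 ChIP reads in all (95% Poisson interval 538 to 633) and 124 input reads. LY19WT had 5 islands with 7299 ChIP reads (7133 to 7468) and 796 input reads. Such intervals cover counting error only. The widest LY19WT island, from 223063001 to 223124800, measured 61.8 kb, wider than 99.1% of its list, and held 4466 ChIP and 481 input reads. All 3 LY19Y646F islands lay inside LY19WT islands, and the 13.6 kb they covered were 14.9% of the LY19WT coverage. In LY19WT the gene stood out from the 500 kb on either side, which was covered to 25.4%, whereas in LY19Y646F those flanks were covered to 10.4%, close to the window itself. Local input was 1.02 in LY19Y646F and 0.977 in LY19WT.

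PAX7, the paralogue of PAX3 that maintains the satellite cells of muscle, was broadly covered in both lines. The window (chromosome 1, 18947001 to 19073000) held 11 islands over 77.5% of its length in LY19Y646F and 12 islands over 71.4% in LY19WT, or 54.6% with the LY19WT list shortened to equal length. The 78.8 kb they shared made up 80.7% of the LY19Y646F and 87.6% of the LY19WT coverage. Coverage continued over the 10 kb upstream of the gene, at 100% in LY19Y646F and 90% in LY19WT, and was low over the 10 kb downstream, at 2% and 20%. The 500 kb on either side of the window was covered to 51.6% in LY19Y646F, against 43.7% in LY19WT. In LY19Y646F the widest island ran from 19010001 to 19036200 with 1071 ChIP and 178 input reads, and in LY19WT from 18936601 to 18956000, just upstream of the gene, with 1600 ChIP and 155 input reads. A short LY19Y646F island from 18986401 to 18988400 had the highest authors' fold in any PAX window, 5.34, on 112 ChIP and only 8 input reads. The LY19WT island at that place ended at the same base and had a fold of 2.64 on 154 ChIP and 19 input reads.

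PAX4, a regulator of the insulin-producing cells of the pancreas, showed the largest difference in favour of LY19Y646F. The window (chromosome 7, 127240001 to 127265000) had 2 islands in each line, which covered 70.4% of it in LY19Y646F and 55.2% in LY19WT. The island over the start of the gene ran from 127251601 to 127264000 in LY19Y646F with 496 ChIP and 101 input reads, and from 127253201 to 127271600 in LY19WT with 1755 ChIP and 159 input reads. That island measured 12.4 kb in LY19Y646F and 18.4 kb in LY19WT, where it ran past the window. The other island of the window measured 9.2 kb in LY19Y646F and 2.2 kb in LY19WT. Over the start, the LY19Y646F island had 40 ChIP reads per kb, more than 33.8% of its list. The LY19WT island there had 95.4, more than 98.5% of its list. Around the window, 5.86% of the 500 kb on either side was covered in LY19Y646F and 28.7% in LY19WT, so the PAX4 islands lay in a sparse part of the LY19Y646F list.

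PAX6, the paralogue of PAX4 and a regulator of eye and pancreatic islet development, was nearly free of islands. None lay in the window (chromosome 11, 31796001 to 31850000) in LY19Y646F. LY19WT had 1, from 31828001 to 31831600, whose 245 ChIP and 28 input reads gave a fold of 2.85 in the authors' list. That island covered 6.67% of the window. In LY19Y646F the stretch without islands ran for 1.2 Mb, from 30794201 to 31996600, where LY19WT had 52 islands over 27.7% of the length. Local input was 1.02 in LY19Y646F and 0.968 in LY19WT. Of the 50 kb windows of chromosome 11, 24.1% had an island in LY19WT and none in LY19Y646F, against 18.5% over all autosomes.

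PAX1, which patterns the vertebral column and the thymus, was covered in part in both lines. Coverage of the window (chromosome 20, 21676001 to 21709000) was 44.8% in LY19Y646F and 63.0% in LY19WT. Inside the gene span LY19Y646F had 1 island, from 21692001 to 21699800 with 344 ChIP and 78 input reads. LY19WT had 2 there, from 21689401 to 21694600 with 329 ChIP and 34 input reads and from 21695401 to 21700000 with 355 ChIP and 42 input reads. The lines shared 12.8 kb, 86.5% of the LY19Y646F and 61.5% of the LY19WT coverage.

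PAX9, the paralogue of PAX1 that acts in the formation of teeth and of the pharyngeal pouches, had islands in LY19WT alone. The window (chromosome 14, 37117001 to 37157000) held no island in LY19Y646F, against 42.5% covered in LY19WT. The LY19WT islands ran from 37138601 to 37152400, with 902 ChIP and 111 input reads, and from 37153201 to 37156400, with 176 ChIP and 17 input reads, over the last part of the gene and its downstream flank. The absence in LY19Y646F was regional. Its list was empty for 13.5 Mb, from 36423001 to 49966000, where LY19WT had 113 islands over 5.96% of the length. Over all islands of chromosome 14, median input relative to the autosomes was 0.768 in LY19Y646F and 0.984 in LY19WT, and the chromosome was covered to 3.24% and 16.7%. The part of this low input in the missing PAX9 islands was not tested. Of the 50 kb windows of chromosome 14, 28.2% had an island in LY19WT and none in LY19Y646F.

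**Figure D2:**
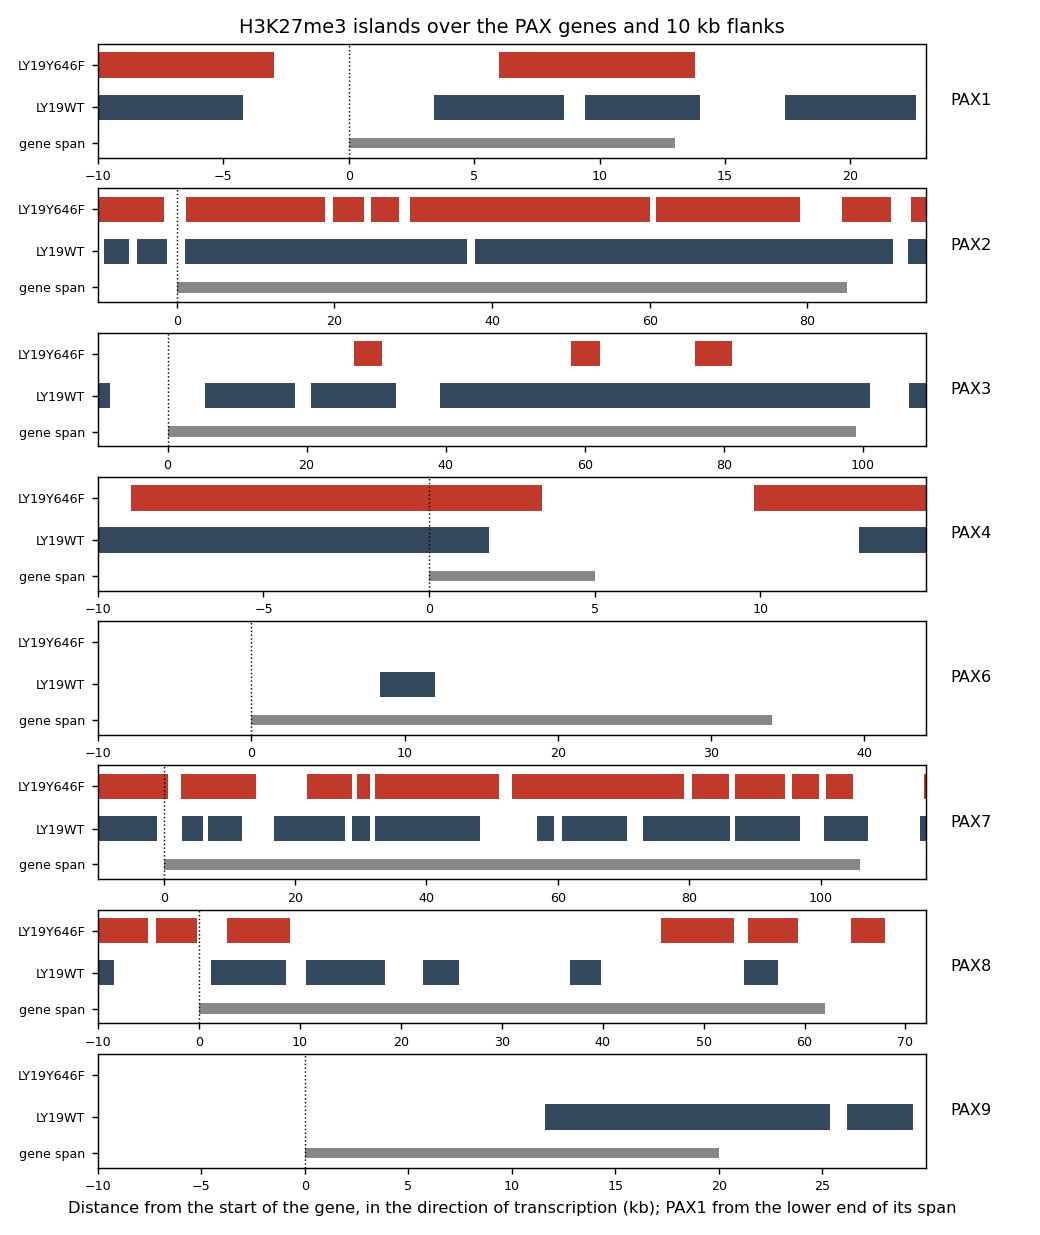
H3K27me3 islands over each PAX gene, with LY19Y646F above LY19WT and the gene span in grey, plotted by distance in kb from the start of the gene in the direction of transcription (from the lower end of the span for PAX1), cut at the 10 kb flanks. The dotted line at 0 falls in a gap between islands at PAX2 in both lines, whereas at PAX4 it falls inside an island in both.

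The PAX4 start lay inside an island in both lines, and the PAX2 start lay in a gap between islands in both. Starts were read from the ends of the spans with the strand of the RefSeq promoter table, which held 7 of the 8 genes and no entry for PAX1. The lower end of the PAX1 span was used in its place. The position was inside an island at 2 of 8 genes in LY19Y646F (PAX4 and PAX7) and at 1 of 8 in LY19WT (PAX4). Within 1 kb of it, the precision of the spans, an island was found at 3 and 2 genes. The genes added were PAX8 in LY19Y646F and PAX2 in LY19WT. On average, islands covered 13.7% of a 50 kb autosomal window in LY19Y646F and 19.8% in LY19WT. Of the summed length of the 8 PAX windows, islands covered 45.3% in LY19Y646F and 61.8% in LY19WT. The counts of positions inside islands are near what the autosomal coverage alone gives. They are below what the coverage of the PAX windows gives. Whether PAX starts fall in gaps more often than other positions of their windows was not tested. The windows of PAX6 and PAX9 held no LY19Y646F island at all. These positions were compared with the islands after the islands had been seen.

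The interruption at PAX2 was in the same place in both lines. In LY19Y646F it measured 2.8 kb, between an island ending at 102503400 and the next starting at 102506201. In LY19WT it measured 2.2 kb, between 102503800 and 102506001. At PAX7 a LY19Y646F island ran from upstream of the gene over the start at 18957001 and ended at 18957600, and the next began at 18959601. The gap in LY19WT, which held the start, ran for 3.8 kb between 18956000 and 18959801. At PAX8 the gap at the position used as the start measured 3.0 kb in LY19Y646F and 9.6 kb in LY19WT. At PAX3 it measured 172.6 kb in LY19Y646F, where no island lay upstream of the gene in its window, and 13.6 kb in LY19WT. The position used for PAX8 was 114036000, and the next LY19Y646F island began at 114036201. That is closer than the spans resolve, so whether the PAX8 start lay inside that island is not known. Read counts outside islands were not analysed here, so the depth of these gaps is not known.

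The promoter chosen for PAX4, whose start was the only one inside islands of both lines, held no CG dinucleotide. That of PAX7, whose start lay inside an island in LY19Y646F alone, held 21. Promoters of 4 genes are printed, those of PAX2, PAX7, PAX9 and PAX4. The PAX2 start lay in a gap in both lines. The PAX7 start lay in a gap in LY19WT but inside an island in LY19Y646F. The PAX9 start lay in a gap of 30.0 kb in LY19WT and in a long LY19Y646F stretch free of islands. Each promoter runs from 250 bases before to 50 after a transcription start, from RefSeq on GRCh38.p14, with CG in capitals. These coordinates belong to that build and not to hg19. Where RefSeq lists several starts, the row shown is the one whose distance to the far end of the gene is nearest to the width of the span.
PAX2 (GRCh38.p14, chr10:100745332-100745631, plus strand): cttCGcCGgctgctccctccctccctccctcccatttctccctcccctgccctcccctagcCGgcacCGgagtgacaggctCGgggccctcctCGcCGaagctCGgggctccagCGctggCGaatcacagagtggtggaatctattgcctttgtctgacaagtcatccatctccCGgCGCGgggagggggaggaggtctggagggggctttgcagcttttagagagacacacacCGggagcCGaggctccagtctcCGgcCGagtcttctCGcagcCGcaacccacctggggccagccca
PAX7 (GRCh38.p14, chr1:18630596-18630895, plus strand): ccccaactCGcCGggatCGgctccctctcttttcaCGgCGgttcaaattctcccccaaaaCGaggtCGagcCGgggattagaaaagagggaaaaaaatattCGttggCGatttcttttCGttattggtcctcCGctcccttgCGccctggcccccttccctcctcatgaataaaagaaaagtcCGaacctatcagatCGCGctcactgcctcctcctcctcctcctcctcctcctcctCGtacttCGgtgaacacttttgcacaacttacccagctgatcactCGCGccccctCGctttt
PAX9 (GRCh38.p14, chr14:36657318-36657617, plus strand): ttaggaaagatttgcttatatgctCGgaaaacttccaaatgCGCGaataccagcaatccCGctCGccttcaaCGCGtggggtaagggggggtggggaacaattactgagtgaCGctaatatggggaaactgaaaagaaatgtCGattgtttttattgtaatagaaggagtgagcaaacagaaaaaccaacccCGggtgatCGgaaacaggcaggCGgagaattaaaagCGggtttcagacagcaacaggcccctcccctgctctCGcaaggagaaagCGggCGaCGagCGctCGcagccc
PAX4 (GRCh38.p14, chr7:127615978-127616277, minus strand): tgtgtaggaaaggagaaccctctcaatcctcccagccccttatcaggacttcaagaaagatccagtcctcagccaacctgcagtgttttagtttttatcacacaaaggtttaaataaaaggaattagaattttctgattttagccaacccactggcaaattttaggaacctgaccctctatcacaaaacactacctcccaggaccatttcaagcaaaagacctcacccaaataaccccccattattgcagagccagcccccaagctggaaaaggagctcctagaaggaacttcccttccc

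The motif searched was the dinucleotide CG, which reads the same on both strands. It occurred 19 times in the PAX2 promoter, 21 times in PAX7, 19 times in PAX9 and 0 times in PAX4. The promoters of PAX3, PAX6 and PAX8 chosen in the same way held 21, 24 and 13. Other listed starts had fewer or more, 14 at PAX2, 12 at PAX9, 2 at PAX4 and from 5 to 32 over the 9 starts of PAX6. Over the 35116 promoters of the table the median was 14, and 57.1% had fewer than the promoters of PAX2 and PAX9. The observed over expected ratio of CG was 1.07 in PAX7, 0.993 in PAX9 and 0.578 in PAX2, beside a median of 0.579. Of all promoters, 11% had fewer CG than the other start of PAX4. These counts describe the letters of the promoters and were not related to the mark by a test.

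Median ChIP density in the PAX islands was above that of the whole lists in both lines. In LY19Y646F the 32 islands had from 34.0 to 56.0 ChIP reads per kb with a median of 44.5, and the list had a median of 41.8 with quartiles of 38.8 and 45.1. In LY19WT the 37 islands had from 46.6 to 106 with a median of 66.2, and the list had 57.3 with quartiles of 51.5 and 65.5. Above the list median stood 25 of 32 islands in LY19Y646F and 26 of 37 in LY19WT. The densest island in LY19Y646F lay at PAX7 and was only 2.0 kb wide, with 112 ChIP and 8 input reads. Over all islands of a window, PAX7 had 44.6 and PAX2 48.6 ChIP reads per kb in that line. In LY19WT the densest lay just upstream of PAX2, from 102500001 to 102503800, with 106 reads per kb on 401 ChIP and 30 input reads. By the authors' fold of ChIP over scaled input, the medians of the PAX islands were 2.06 in LY19Y646F and 2.75 in LY19WT, against 1.9 and 2.28 in the lists. Islands of 1 gene share their surroundings and are not independent.

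**Figure D3:**
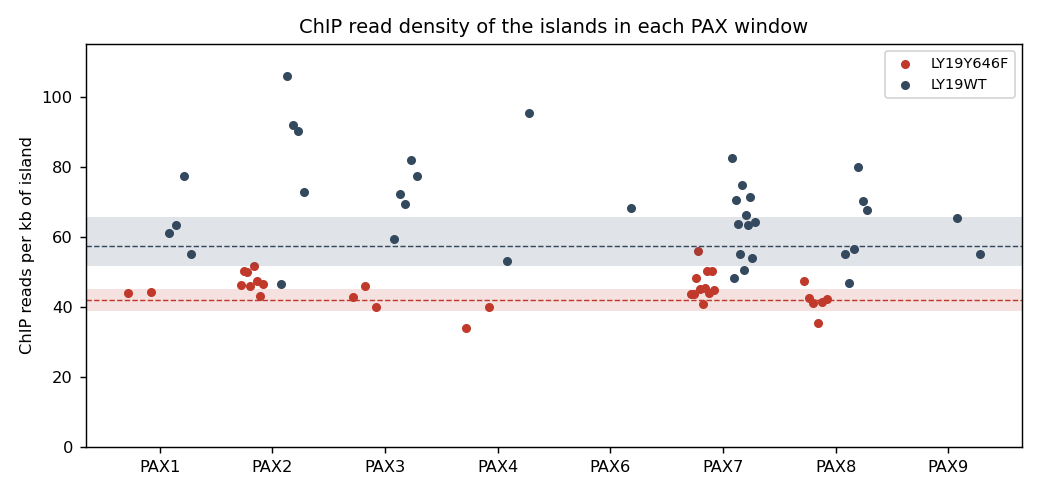
ChIP reads per kb of every island in each PAX window, with 1 point per island and LY19Y646F left of LY19WT, on a linear axis from 0. Shaded bands are the quartiles and dashed lines the medians of all islands of each line, and the PAX2 points lie above the LY19Y646F median in 8 of 8 islands and above the LY19WT median in 4 of 5.

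Set against input, islands over PAX genes were less enriched in LY19Y646F, but the direction depended on the scaling. ChIP reads were summed over the islands of a window and divided by input reads and by the ratio of the libraries. The log2 ratio of LY19Y646F to LY19WT was then below 0 at all 6 genes with islands in both lines. Scaling by total ChIP reads in islands turned it above 0 at 5 of them (PAX1, PAX2, PAX3, PAX7 and PAX8). That total also follows the length of a list, 383.6 Mb in LY19Y646F and 554.6 Mb in LY19WT. The shorter LY19Y646F list thus raises the ratio in this scaling at every gene alike. By the first scaling the log2 ratio was lowest at PAX4, at -1.03 (95% counting interval -1.35 to -0.71). It was nearest to 0 at PAX7, at -0.17 (-0.33 to -0.02). The median of the 6 genes was -0.52, and that of the 13676 autosomal 50 kb windows with islands of both lines was -0.34, with 80.9% of them below 0. PAX4 was the only one of the 6 that stayed below 0 when scaled by total ChIP reads, at -0.17. In that scaling 6.1% of those windows lay below 0. The median there was 0.39 over the 6 genes and 0.48 over those windows, so values above 0 were usual over the autosomes. The islands compared differ in extent between the lines, above all at PAX3, so the ratio describes enrichment inside called islands and not the amount of the mark over a fixed stretch.

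**Figure D4:**
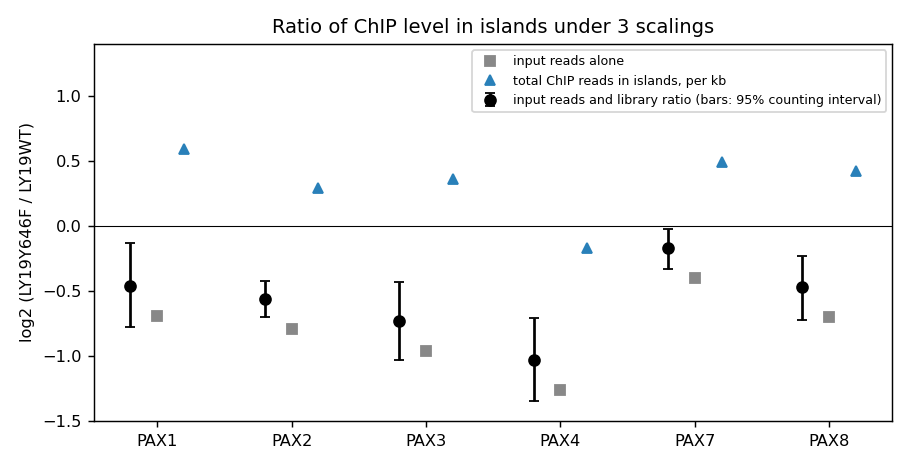
Log2 ratio of LY19Y646F to LY19WT ChIP level in the islands of the 6 PAX windows with islands in both lines, under 3 scalings, with 95% counting intervals for the scaling by input reads and library ratio. Points for total ChIP reads lie above 0 at 5 genes, and at PAX4 all 3 points lie below 0.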

How the data were processed

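The data were H3K27me3 ChIP-seq island lists of LY19Y646F and LY19WT. The submitters' processing notes name hg19, SAMtools 1.3.1, Bowtie2 2.2.9, bedtools and SICER. Per the labels, the replicates of a line were merged and islands kept at an FDR of 0.001 over its input. Per the file headers, the authors give for each island raw counts of ChIP and of input reads, with a p-value, an FDR and a fold. That deposited fold equals the ratio of the counts, ChIP to input, over a constant of the list (2.62 in LY19Y646F, 3.07 in LY19WT), here taken as the ratio of the libraries. These deposited statistics were used as given, and the p-values depend on depth. SICER joins enriched 200 bp steps across short gaps (islands lay at least 800 bp apart), so edges are resolved no finer than 200 bp.

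Coordinates are 1-based hg19. Counts belong to whole islands, also where these run past a window. Coverage, shared length and the log2 ratios were computed with scipy 1.17.1, pandas 2.3.3 and numpy 2.4.6 under Python 3.11.15, tested on simulated lists. Background windows tiled the autosomes from the first to the last island. All 8 genes were described. Members, gene lists and comparisons were chosen with earlier results of these data known. With 1 merged list per line, no test between lines was made. Alternatives were stricter FDR limits, other flanks and overlaps, joined islands, lists of equal length, other scalings and wider windows. The bins of normal input and the 1 kb tolerance at gene starts were added after seeing the data. Other genes of the network were not analysed here, because the gene table was on GRCh38.p14.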

Additional observations from a re-analysis of the deposited data

How the results depend on the processing

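The counts of PAX genes with an island, covered by at least 50%, or covered less in LY19Y646F stayed within 1.5 times their values under the alternatives run, with 1 exception. With the LY19WT list shortened to the length that LY19Y646F covers, 3 genes in LY19Y646F and 3 in LY19WT were covered by at least 50%, where the full LY19WT list gave 5. PAX1 and PAX4 then fell below 50% in LY19WT, at 47.3% and 47.2%. A limit of 1.5 times is wide for counts this small. Without flanks, 4 genes in LY19Y646F and 4 in LY19WT were covered by at least 50%. With flanks of 50 kb the counts were 2 in LY19Y646F and 4 in LY19WT. Genes covered less in LY19Y646F numbered 4 to 6 of 8 over the alternatives with all genes. PAX8 was covered less in LY19Y646F without flanks (29.7% and 40.6% in LY19WT) and at an FDR of 1e-10 (25.1% and 29.0%). PAX8 had 41.6% and 26.3% with 50 kb flanks. PAX7 was covered less with islands joined (85.2% and 86.8%), and PAX2 more with 50 kb flanks (80.8% and 76.2%). At PAX3, PAX9 and PAX6 LY19Y646F was lower wherever LY19WT had an island, and the PAX6 island was not in the shortened list. In the 7 genes in 10 Mb bins with input within 15% of the autosomal median in both lines, which leave out PAX9, 6 windows held an island in LY19Y646F and 7 in LY19WT. Scaled by total ChIP reads in islands, the log2 ratio turned to 0.59 at PAX1, 0.29 at PAX2, 0.36 at PAX3, 0.49 at PAX7 and 0.42 at PAX8. This scaling takes reads per kb over 1 total per list and does not divide by input. The total follows the length of the list, so the shorter LY19Y646F list raises these ratios. Over the autosomal 50 kb windows with islands of both lines their median was 0.48. Replicates could not be left out, because they had been merged. No paired analysis was possible because the lists carry no replicate values. Absence of an island at this depth is not absence of the mark.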

Other observations

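Among islands that touched a PAX window and overlapped the other line, most edges fell at different places in the lines, and a minority coincided. Edges of these islands that lay past the window were counted too. Of the 58 edges of the 29 LY19Y646F islands that overlapped a LY19WT island, 16 (27.6%) lay within 400 bp of a LY19WT edge of the same side, and of the 54 edges of the 27 LY19WT islands, 16 (29.6%) had such a partner. Over all overlapping islands of the lists the shares were 13.6% in LY19Y646F and 16.1% in LY19WT. The matched edges lay at PAX7 (7), PAX2 (4), PAX8 (3) and PAX1 (2), and PAX3 and PAX4 had none. The tolerance was chosen after seeing the data.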
